A study of Mus musculus with 42 samples.

Results

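The libraries collected from differentiating mouse embryonic stem cells at 72 h and 78 h were compared with those collected at 90 h and 102 h, to ask which genes changed over the interval in which germ layer genes are thought to begin in these cultures. The comparison used 8 of the 42 libraries of the series, chosen by their time point and replicate labels, with 4 libraries in the early group (72 h and 78 h, replicates A and B) and 4 in the late group (90 h and 102 h, replicates A and B). All of them came from the W9.5 line, on a 129X1/SvJ background, which was left to differentiate without direction as embryoid bodies after leukaemia inhibitory factor was withdrawn, and no library carried a further agent or allele. The replicates are 2 courses of a single line, so p-values measure the spread between these cultures and not between lines or animals. The 96 h libraries were left out of the contrast because the duplicates of that time point disagree.

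An embryoid body is a floating aggregate of stem cells in which, with no added signal, cells leave pluripotency through a state like the epiblast of the embryo and form precursors of ectoderm, mesoderm and endoderm. In the embryo Nodal, Wnt and bone morphogenetic protein (BMP) signals induce a primitive streak marked by the transcription factors T, Mixl1 and Eomes, and cells outside the reach of these signals become neural or surface ectoderm. Fibroblast growth factor (FGF) signals act at both steps. Each library averages a mixed aggregate, so fewer cells of a type and less RNA per cell cannot be told apart here.

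Between 17759800 and 36064383 reads were counted per library on 14296 genes, and 3 reads, about the most that could be missed when none was seen, amounted to 0.0794 to 0.164 CPM (counted reads scaled to a common library size). Levels are given as log2 CPM and changes as the mean of the 4 late libraries minus the mean of the 4 early libraries on the log2 scale, with the standard error (SE) from limma. The spread was estimated between the duplicates of all 21 time points, and a gene was called at a Benjamini-Hochberg adjusted p under 0.0001.

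Of the 14296 genes, 693 were called higher (4.85%) and 449 lower (3.14%) in the late libraries. The median change was 0.83 for genes called higher and -0.73 for genes called lower, against -0.01 for all genes, and 269 genes rose and 132 fell by more than 1 on the log2 scale. All 693 and all 449 changed in the same direction in replicate A and in replicate B. The calls rest on these same values, so this agreement is no independent support. In 1072 of the 1142 called genes the late values all lay on one side of the early values, and over all genes tested 2052 (14.4%) lay wholly above and 1726 (12.1%) wholly below. Fitted on the 8 libraries alone, where the step between the time points of a group counts as spread, no gene passed (lowest adjusted p = 0.000478), although 5156 genes had an unadjusted p under 0.05, and 1113 of the 1142 had an adjusted p under 0.05. Leaving out 1 library gave between 417 (without 78 h A) and 656 (without 72 h A) genes higher. The lower calls then ranged from 256 (without 78 h A) to 363 (without 72 h A), and 90 of the 130 called genes on the lists and rules used here kept their call in all 8 such fits. Where a gene named below did not, the number of the 8 fits in which it was called is given. Leaving out both libraries of a time point cost more of the 130 calls at 72 h and 102 h. Without 72 h 54 were kept, without 78 h 108, without 90 h 120 and without 102 h 43.

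**Figure D1:**
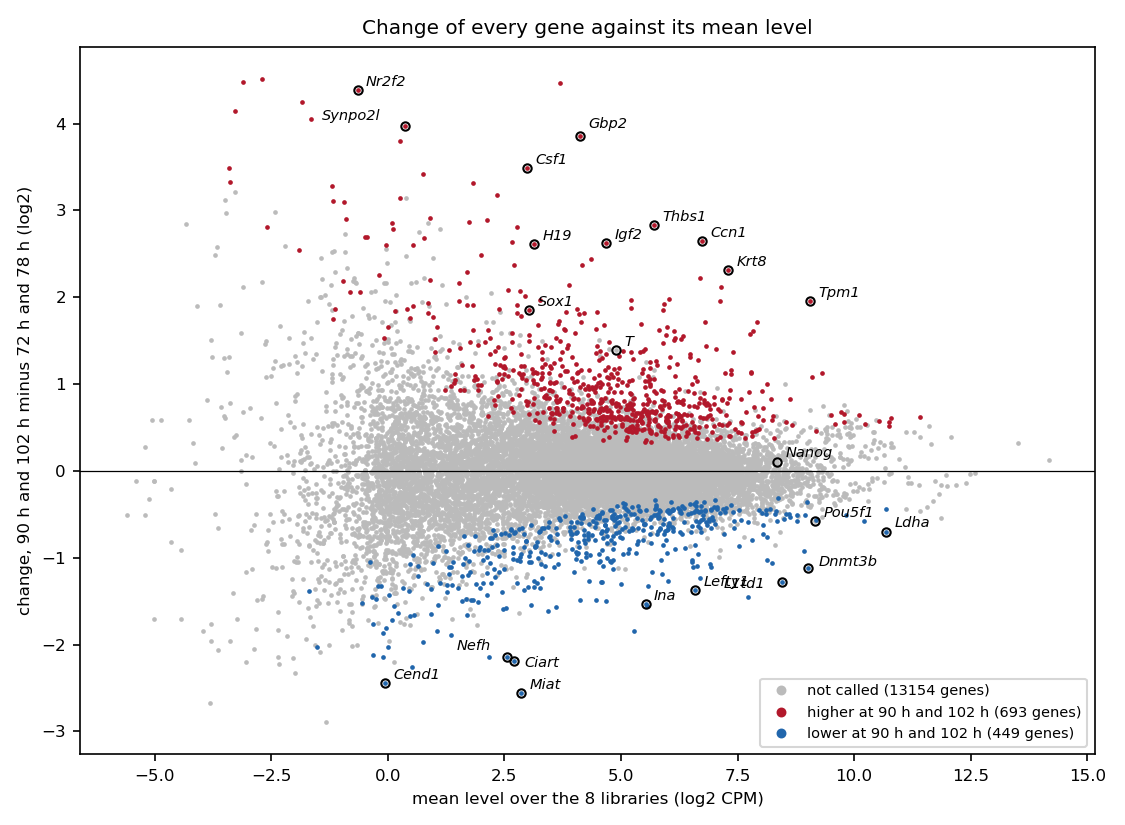
Change of each of 14296 genes (y axis, late minus early, log2) against its mean level over the 8 libraries (x axis, log2 CPM). Red points are the 693 genes called higher and blue points the 449 called lower. Circled genes are described in the text, and T, Pou5f1 and Nanog are circled among genes that were not called.

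No streak transcription factor passed the test. Of the 13 listed, 10 were measured and 0 were called in either direction, and Mesp1, Tbx6 and Msgn1 were not analysed here. The median change of the list was 0.88, beside -0.01 over all genes. At an adjusted p under 0.05 (limma) 3 members were higher and 0 lower, beside 18.3% and 18.0% of all genes. T (Brachyury), a T-box factor of the streak and early mesoderm, had levels of 3.73 and 3.49 at 72 h (A and B), 4.55 and 5.0 at 78 h, 4.99 and 5.81 at 90 h and 5.96 and 5.58 at 102 h. Replicate B at 78 h and replicate A at 90 h stood together, so the groups overlapped. The change of 1.39 ± 0.32 (SE) had an adjusted p of 0.00121 by limma. With the 96 h libraries left out of the fit the same change had an adjusted p of 7e-05, an alternative chosen after seeing the data. Of the 10 measured factors, T alone was called in that fit. In the main fit the difference between the 96 h duplicates enters the SE. It was wide in streak factors such as T (5.70 in A, 7.83 in B) and Lhx1 (0.76 in A, 3.26 in B). T had already climbed before 72 h, from 1.19 and 1.53 at 60 h to 2.36 and 2.44 at 66 h.

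Eomes, the T-box factor of streak endoderm and cardiac mesoderm, had levels of 5.46 and 5.75 at 72 h, 6.04 and 6.28 at 78 h, 4.96 and 5.72 at 90 h and 5.70 and 5.65 at 102 h. These groups overlapped, with a change of -0.37 ± 0.25 (adjusted p = 0.255). The homeobox gene Mixl1 was at 0.67 ± 0.38 (adjusted p = 0.179) and Evx1, a posterior streak gene, at 1.09 ± 0.61 (adjusted p = 0.172). The organizer genes Gsc and Lhx1 stood wholly higher in the late libraries, by 2.16 ± 0.64 and 2.30 ± 0.70, with adjusted p of 0.00959 and 0.0111, and each early library held 22 reads or fewer of either. Sp5, a Wnt target of the streak, also separated the groups without passing (1.59 ± 0.67, adjusted p = 0.0659).

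Among definitive endoderm genes 9 of 12 were measured and 0 were called, with a median change of 0.07. At an adjusted p under 0.05 (limma) 2 were higher and 1 lower. Foxa2 was at 0.13 ± 0.49 and Hhex at 0.07 ± 0.18, and Sox17, Cer1 and Foxa1 were not analysed here. Trh, which marks early definitive endoderm, had levels between 7.07 and 7.35 in the early libraries and between 6.16 and 6.63 in the late ones. Trh lay wholly lower but missed the threshold (-0.77 ± 0.22, adjusted p = 0.00693), and it passed without the 96 h libraries in the fit (adjusted p = 1.6e-06). At the shares over all genes, 4.85% called higher and 3.14% lower, lists this short would hold few calls. The 0 counts therefore do not set the streak and definitive endoderm lists apart from other genes. With no factor of either list called, the comparison is named here by its hours.

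Of the mesoderm lists, 1 of 9 measured cardiac and lateral genes was called higher, 1 of 10 paraxial genes was called higher and 0 of 10 blood and vessel genes were called, with 0 called lower in the 3 lists. Over all genes 4.85% were called higher and 3.14% lower. The cardiac gene was Tbx20, a T-box factor, whose levels were between -1.05 and -0.58 in the early libraries and between 0.06 and 1.62 in the late ones (1.66 ± 0.26, adjusted p = 1.43e-05, called in 4 of the 8 leave-one-out fits, with the highest adjusted p, 0.000292, without 90 h A). The paraxial gene was Lfng, which modifies Notch receptors (0.99 ± 0.15, adjusted p = 1.22e-05, 4 of 8 fits, 0.000159 without 78 h A). Cyp26a1, which degrades retinoic acid, ranged from between -0.99 and 0.41 to between 1.18 and 3.58 without overlap, and its adjusted p was 0.000196 (2.79 ± 0.54). Kdr, the VEGF receptor of vessel and blood precursors, separated the groups at 2.18 ± 0.49 (adjusted p = 0.00105), whereas the blood factor Tal1 stood at -1.41 ± 0.40 (adjusted p = 0.00729) with overlapping libraries, and passed only without 102 h A (2.3e-05).

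In the surface ectoderm list 5 of 13 measured members were called higher and 0 lower, beside 4.85% and 3.14% over all genes. The median change was 1.09, and 4 or 5 were called when any 1 library was left out. The 8 members not called included Grhl2, Grhl3, Cdh3 and Krt7, and Krt5, Krt14, Trp63 and Dlx5 were not analysed here. At an adjusted p under 0.05 (limma) 10 members were higher and 1 lower. Krt8, a keratin of simple epithelia, had levels of 5.91 and 6.12 at 72 h, 6.23 and 6.29 at 78 h, 7.63 and 7.78 at 90 h and 9.23 and 9.17 at 102 h. All late libraries lay above all early ones and the 102 h libraries above the 90 h ones, for a mean rise of 2.31 ± 0.09, or 4.97-fold (adjusted p = 9.44e-17). Its filament partner Krt18 rose by 2.12 ± 0.12 and Krt19 by 1.69 ± 0.13. Tfap2c, an AP-2 factor of surface ectoderm, trophoblast and germ cells, rose by 1.72 ± 0.17 (adjusted p = 9.37e-09), from between 2.62 and 3.96 to between 4.32 and 5.46. Msx2, a homeobox target of BMP, rose by 1.96 ± 0.32 (adjusted p = 2.83e-05), with a call in 1 of the 8 leave-one-out fits and an adjusted p of 0.00044 without 90 h B.

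Keratins and Tfap2c are also made by trophoblast and extraembryonic endoderm, so the markers of these lineages were followed. Of 9 measured trophoblast markers Tfap2c was called higher and Ascl2 lower (-1.48 ± 0.22, 6 of 8 fits, 0.000146 without 78 h B), and their summed level was 66.9 to 114 CPM in the early and 72.5 to 132 CPM in the late libraries. That sum includes Eomes, whose groups overlapped as described above. The median change of the trophoblast list was 1.01, and at an adjusted p under 0.05 (limma) 6 members were higher and 1 lower. Gata3, shared by trophoblast and surface ectoderm, separated the groups (2.45 ± 0.46) but had an adjusted p of 0.000137 (5.86e-05 with the replicate as a block). Of 14 measured extraembryonic endoderm markers the matrix genes Sparc, Col4a1 and Col4a2 were called higher and 0 lower, and the summed level was 1193 to 1434 CPM early and 1368 to 1957 CPM late. Fibroblast markers, 9 measured and 0 called, summed to 31.0 to 34.0 CPM early and 33.4 to 44.3 CPM late. The shares over all genes were 4.85% called higher and 3.14% lower. The part of trophoblast and extraembryonic endoderm in the keratin rise was not tested.

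In the neuroectoderm list 2 of 18 measured genes were called higher and 1 lower, beside 4.85% and 3.14% over all genes. The median change was 0.21. Sox1, the earliest definitive neural plate factor, had levels of 2.10 and 2.16 at 72 h, 1.97 and 2.19 at 78 h, 3.12 and 3.03 at 90 h and 4.92 and 4.77 at 102 h. It was flat over the early libraries, separate at 90 h and higher again at 102 h, a rise of 1.85 ± 0.19 or 3.62-fold (adjusted p = 2.72e-08). Sox1 had already risen and fallen before 72 h, with levels of 3.68 and 3.53 at 42 h. The 90 h levels lay below those at 42 h and the 102 h levels above them, so the change is not a first rise of Sox1. Nes (nestin), an intermediate filament of neural progenitors, rose by 0.81 ± 0.12 (adjusted p = 6.91e-06, called in 6 of the 8 fits, with 0.000138 without 102 h A). Tubb3, the neuronal tubulin, fell by 1.33 on the log2 scale (SE 0.16). The neural factor Pax6 had overlapping levels between -0.94 and 0.56, and Sox2 (-0.06 ± 0.07) and Otx2 (0.10 ± 0.12), shared by epiblast and neural plate, overlapped as well.

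**Figure D2:**
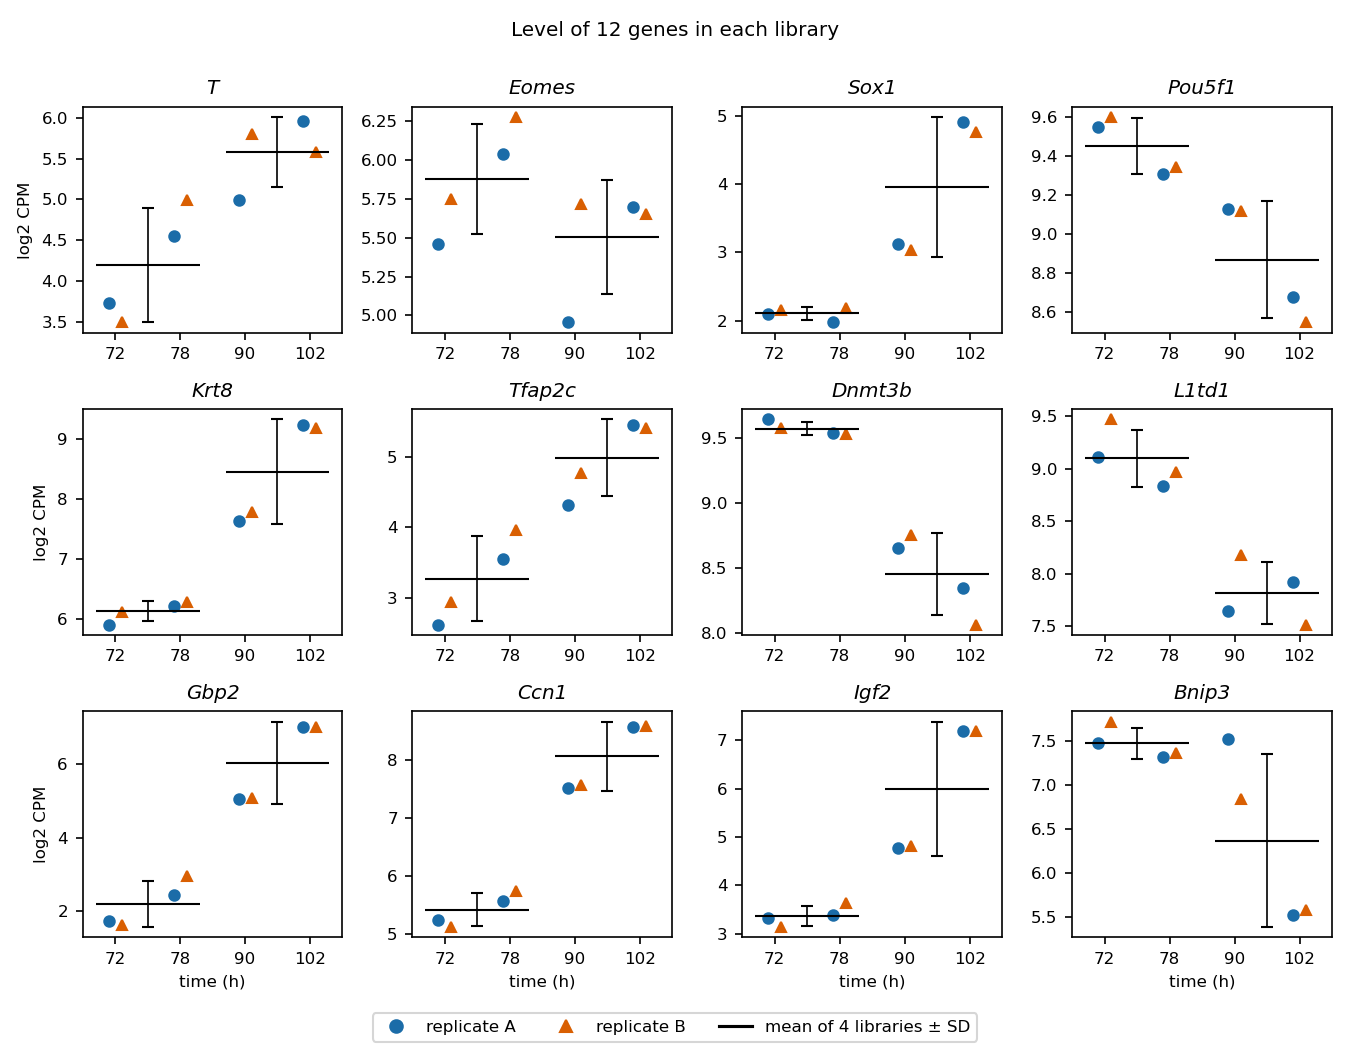
Level (log2 CPM) of 12 genes in each library at 72 h, 78 h, 90 h and 102 h. Circles are replicate A, triangles replicate B, and lines with bars are the mean and SD of the 4 libraries of a group. T and Eomes overlap between groups, whereas the late libraries of Sox1, Krt8, Tfap2c, Gbp2, Ccn1 and Igf2 all lie above the early ones.

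The core pluripotency factors Nanog and Pou5f1 did not pass the test. Nanog differed between the group means by 0.11 ± 0.09 (adjusted p = 0.347). Pou5f1 (Oct4) had levels of 9.55 and 9.60 at 72 h, 9.31 and 9.35 at 78 h, 9.13 and 9.12 at 90 h and 8.68 and 8.55 at 102 h. Its libraries stepped down at each time point without overlap of the groups, and its change of -0.58 ± 0.12 missed the threshold (adjusted p = 0.000618; 3.7e-06 without the 96 h libraries in the fit). Of 15 general pluripotency genes, at a median of -0.27, 0 were called higher and 2 lower, beside 4.85% and 3.14% over all genes. These were L1td1, an RNA-binding protein, which fell by 1.28 (SE 0.17) from between 8.84 and 9.47 to between 7.51 and 8.18, and Tdgf1 (Cripto), the Nodal coreceptor, which fell by 0.92 (SE 0.11).

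Of 13 primed epiblast genes, at a median of -0.12, 5 were called lower, 1 higher and 7 not called, beside 3.14% lower and 4.85% higher over all genes. The de novo DNA methyltransferase Dnmt3b had levels of 9.65 and 9.58 at 72 h, 9.54 and 9.54 at 78 h, 8.65 and 8.75 at 90 h and 8.34 and 8.06 at 102 h. It was level in the early libraries and lower in every late one, a drop of 2.18-fold (-1.12 ± 0.08, adjusted p = 1.84e-11). Dnmt3b had already fallen before 72 h, from 10.60 and 10.56 at 54 h to 10.08 and 9.97 at 66 h. Its cofactor Dnmt3l fell by 0.90 (SE 0.11) and Dnmt3a by 0.47 (SE 0.07). The forkhead factor Foxd3 fell by 1.58 (SE 0.25, 1 of 8 leave-one-out fits, 0.000387 without 72 h A). Lef1, a Wnt effector, fell by 1.27 (SE 0.20, 2 of 8 fits, 0.000279 without 90 h A), and the gene called higher was Tead2, a partner of YAP, at 0.45 ± 0.06. Fgf5, the classic epiblast ligand, was instead at 0.58 ± 0.12 (adjusted p = 0.000665), with 90 h values between 6.54 and 6.57 inside the early range and 102 h values above it.

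Of 12 naive pluripotency genes 1 was called lower and 0 higher, at a median of 0.28, beside 3.14% and 4.85% over all genes. At an adjusted p under 0.05 (limma) 6 were higher and 1 lower, beside 18.3% and 18.0% of all genes. With the 96 h libraries left out of the fit 3 were called higher and 1 lower. Fgf4, the FGF that primes stem cells, had levels of 6.66 and 6.5 at 72 h, 6.32 and 6.36 at 78 h, 5.5 and 5.48 at 90 h and 5.62 and 5.47 at 102 h. It dropped between 78 h and 90 h and stayed level, a change of -0.94 ± 0.07 (adjusted p = 1.08e-10). Fgf4 had also fallen before 72 h, from 8.20 and 8.23 at 48 h to 7.22 and 7.21 at 66 h. Klf4 was at 0.75 ± 0.15 (adjusted p = 0.000225), with late values between 2.62 and 4.09 that overlapped the early ones, and it was called in the fits without 72 h A (7.15e-06) and without 90 h A (5.09e-05). In the germ cell list Dnd1, an RNA-binding protein, rose by 0.95 ± 0.17. It was called in 0 of the 8 leave-one-out fits (highest adjusted p = 0.00109, without 102 h B). Dppa3 (Stella) separated the groups at 1.44 ± 0.27 with an adjusted p of 0.000141 (1.21e-05 with the replicate as a block).

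**Figure D3:**
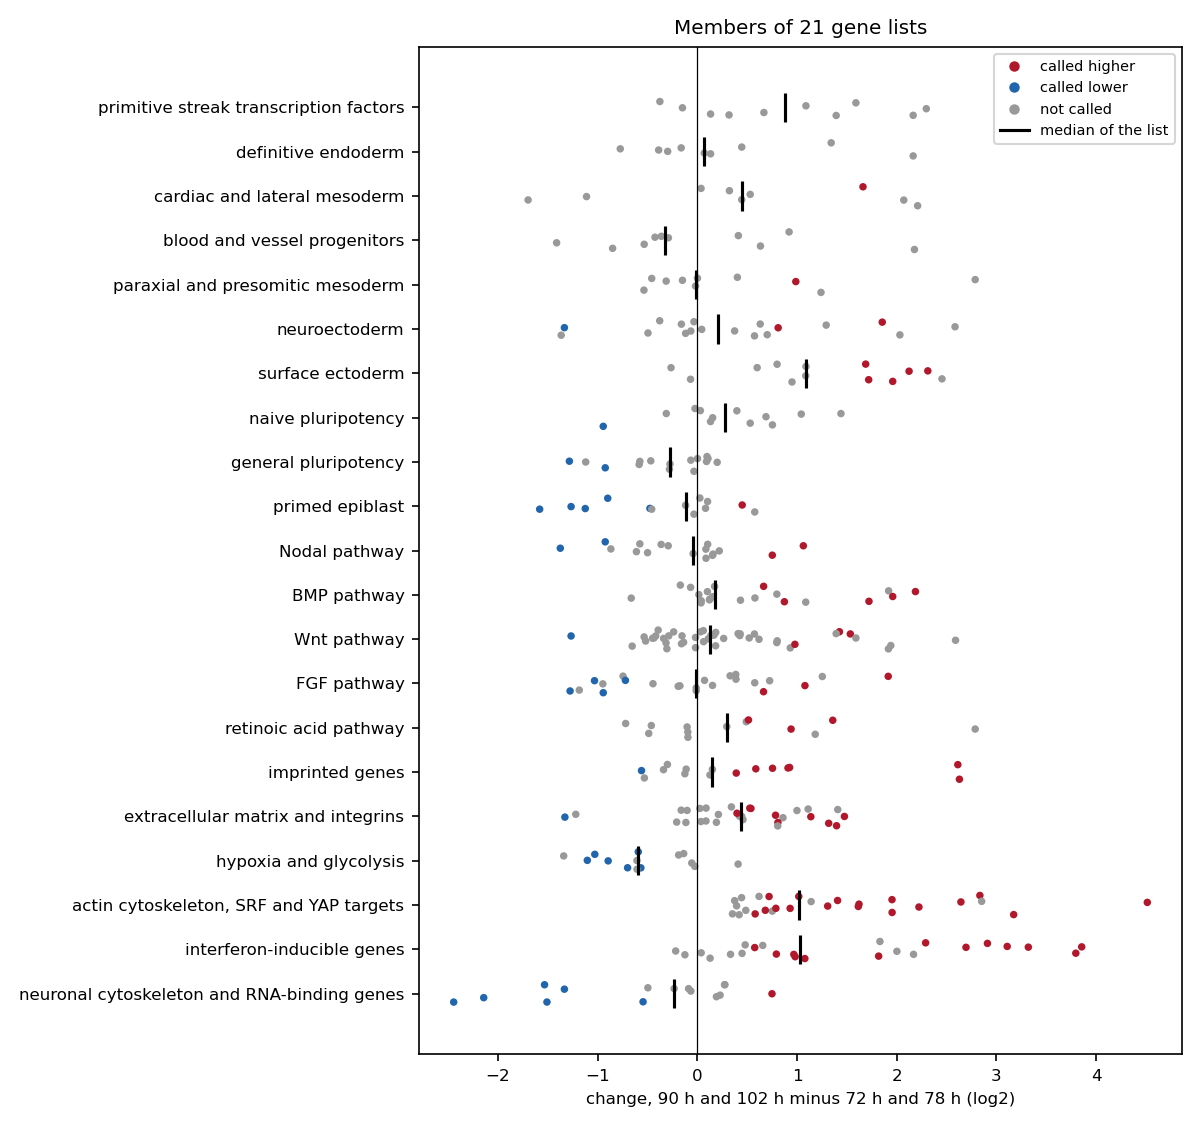
Change (log2, late minus early) of each measured member of 21 gene lists, with red points called higher, blue points called lower, grey points not called and black bars the list medians. The streak and definitive endoderm lists hold grey points alone, and the actin and interferon lists, which were chosen after values were seen, hold 17 and 13 red points.

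Of 17 measured Nodal pathway genes 2 were called higher, 2 lower and 13 not called, beside 4.85% higher and 3.14% lower over all genes. Among ligands and coreceptors 1 of 5 measured genes was called higher (Furin, the protease that matures Nodal, 1.06 ± 0.15) and 1 lower (Tdgf1), and Nodal itself overlapped at -0.29 ± 0.14. Among receptors and effectors 1 of 7 was higher, Smad3 (0.75 ± 0.10). Among inhibitors and targets 1 of 5 was lower. This was Lefty1, a feedback inhibitor of Nodal, with levels of 7.52 and 7.18 at 72 h, 7.23 and 7.17 at 78 h, 6.12 and 6.12 at 90 h and 5.60 and 5.76 at 102 h. Every late library lay below every early one, a 2.59-fold drop (-1.37 ± 0.20, adjusted p = 5.15e-06). Lefty2 lay lower in the same way and missed the threshold (-0.87 ± 0.17, adjusted p = 0.000316; 9.2e-08 without the 96 h libraries, 3.72e-05 with the replicate as a block).

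In the BMP list 5 of 21 measured genes were called higher and 0 lower, beside 4.85% and 3.14% over all genes. When any 1 library was left out, 2 to 4 were called. Of the ligands Bmp7 rose 3.3-fold (1.72 ± 0.17, adjusted p = 1.99e-08), from between 2.24 and 3.24 to between 4.07 and 4.90, whereas Bmp4 overlapped (0.04 ± 0.19). No receptor or effector was called among 5. Of 11 inhibitors and targets 4 were higher, namely Id1, a BMP-induced inhibitor of differentiation (0.87 ± 0.11), Msx2, the decoy receptor Bambi (0.67 ± 0.11, 2 of 8 fits, 0.000912 without 90 h A) and the secreted antagonist Nog (2.19 ± 0.36, 3 of 8 fits, 0.000416 without 72 h B). Nog was counted by only 3 to 10 reads in each early library and by 16 to 58 in each late one.

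In the Wnt list 3 of 44 measured genes were called higher and 1 lower, shares near those over all genes (4.85% and 3.14%). Wnt4, a ligand, rose by 1.43 ± 0.20 (adjusted p = 2.82e-06), Wnt7b by 1.53 ± 0.23 with overlapping libraries (6 of 8 fits, 0.000171 without 90 h A), and the receptor Fzd2 by 0.98 ± 0.16 (2 of 8 fits, 0.000501 without 72 h B). The streak ligand Wnt3 (0.26 ± 0.30) and the feedback target Axin2 (0.14 ± 0.18) overlapped, and Wnt3a was not analysed here.

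The FGF list, measured in all 23 members, had 3 genes called higher and 4 lower, beside 4.85% and 3.14% over all genes. Ligands moved in both directions. Fgf17 rose by 1.08 ± 0.15, Fgf15 fell by 1.03 (SE 0.14) and Fgf4 fell as described, while Fgf8, the gastrulation ligand, separated the groups at 1.25 ± 0.25 but had an adjusted p of 0.000243 (4.4e-05 with the replicate as a block). Of the receptors Fgfr3 rose by 1.91 ± 0.30 (4 of 8 fits, 0.00024 without 90 h A) and Fgfr2 by 0.66 ± 0.12 (0 of 8 fits, 0.000855 without 102 h A). Spry4, a feedback inhibitor induced by FGF, had levels between 5.02 and 5.49 in the early and between 3.63 and 4.28 in the late libraries, a 2.42-fold drop (-1.27 ± 0.15, adjusted p = 2.54e-07). The ETS target Etv1 fell by 0.72 (SE 0.09).

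Of 13 measured retinoic acid genes 3 were called higher and 0 lower. Crabp2, which carries retinoic acid to its receptor, rose 2.56-fold (1.36 ± 0.15), Dhrs3, which reduces retinal back to retinol, rose by 0.94 ± 0.12, and the receptor Rxra by 0.51 ± 0.09 (1 of 8 fits, 0.000982 without 78 h A). The caudal factor Cdx2 overlapped (1.24 ± 0.51). In the Notch list 1 of 14 measured genes was higher (Lfng) and 1 lower (the ligand Jag1, -0.65 ± 0.10, 2 of 8 fits, 0.000475 without 78 h A). These are single genes, beside 4.85% called higher and 3.14% lower over all genes.

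The regulators of epithelial-mesenchymal transition, 5 measured with Snai1 among them (0.32 ± 0.33), gave 0 calls, and so did 4 mesenchymal genes such as Cdh2 (-0.43 ± 0.24) and Vim (0.17 ± 0.19). Of 11 epithelial genes the tight junction claudins Cldn3 (1.28 ± 0.14) and Cldn4 (1.52 ± 0.08) were called higher, beside 4.85% over all genes. Cldn4 went from between 5.13 and 5.78 to between 6.66 and 7.46. Cdh1 (E-cadherin) was at 0.39 ± 0.07, just outside the threshold (adjusted p = 0.000129, and 5.35e-05 with the replicate as a block).

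Of 30 measured matrix and integrin genes 9 were called higher, 1 lower and 20 not called, beside 4.85% higher and 3.14% lower over all genes. When any 1 library was left out, 6 to 9 were called higher. Of the integrins, the receptors through which cells hold the matrix, 5 of 10 rose. Itga3 was the largest, from between 4.74 and 5.48 to between 6.13 and 7.22 (1.48 ± 0.13, adjusted p = 1.59e-09), followed by Itgb3 (1.40 ± 0.22, 2 of 8 fits, 0.000471 without 78 h A), Itga5 (0.79 ± 0.07), Itgb1 (0.54 ± 0.07) and Itgb5 (0.40 ± 0.06, 4 of 8 fits, 0.000277 without 102 h B). In the matrix, Col5a1 rose by 1.32 ± 0.10, Sparc by 1.14 ± 0.05 and the basement membrane chains Col4a2 and Col4a1 by 0.81 ± 0.10 and 0.53 ± 0.09 (Col4a1 in 2 of 8 fits, 0.0014 without 102 h A). The proteoglycan Vcan fell by 1.33 (SE 0.20, 5 of 8 fits, 0.000216 without 102 h B).

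Imprinted genes, which are expressed from the copy of a single parent, had 7 of 15 measured members called higher and 1 lower. The shares over all genes were 4.85% and 3.14%. When any 1 library was left out, 4 to 6 members were called higher. Igf2, the fetal growth factor, had levels of 3.32 and 3.14 at 72 h, 3.38 and 3.63 at 78 h, 4.77 and 4.82 at 90 h and 7.20 and 7.20 at 102 h. The late libraries lay above the early ones and most of the distance came after 90 h, with a mean rise of 2.63 ± 0.15 or 6.19-fold (adjusted p = 3.91e-13). Its neighbour H19, a long noncoding RNA expressed from the other parental copy, rose 6.12-fold (2.61 ± 0.33, adjusted p = 7.36e-07), from between 1.40 and 2.31 to between 3.41 and 5.66. Peg10 (0.93 ± 0.12), Peg3 (0.91 ± 0.15, 3 of 8 fits, 0.000518 without 102 h A), Sgce (0.75 ± 0.10), Grb10 (0.59 ± 0.09, 4 of 8 fits, 0.000167 without 90 h A) and Mest (0.39 ± 0.06, 1 of 8 fits, 0.000399 without 78 h A) rose less. Impact fell by 0.56 (SE 0.07).

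The largest rises by the naming rule lay mostly outside the germ layer lists. The first was the gene ENSMUSG00000028269.4, for which the annotation used gave no symbol, at 22.1-fold (4.47 ± 0.22), and the second was Nr2f2 (COUP-TFII), a nuclear receptor of mesenchyme and veins. Nr2f2 was counted by 3, 3, 3 and 4 reads in the early libraries and by 33, 40, 221 and 171 in the late ones (4.39 ± 0.61, adjusted p = 3.27e-06). Its early level sat at the floor, so the size of the change depends on the offset. Synpo2l, an actin-associated muscle protein, was at 3.97 ± 0.30, the colony-stimulating factor Csf1 rose 11.2-fold (3.49 ± 0.25), and the crystallin chaperone Cryab was at 3.15 ± 0.20. The matrix protease Mmp9 rose 7.41-fold (2.89 ± 0.15), Cdc42ep1, an effector of the GTPase Cdc42, 7.31-fold and the secreted Thbs1 7.13-fold. The remaining genes of the 15 were Nxf7 (3.42 ± 0.51, 7 of 8 fits, 0.000121 without 72 h A), Arsi (2.85 ± 0.35), the actin Acta1 and 4 interferon-inducible genes.

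The interferon-inducible genes were gathered into a list after their values were seen, so the count is a description and no independent support for its direction. Of 24 measured, 13 were called higher and 0 lower, at a median change of 1.03, with 8 to 10 called when any 1 library was left out. Gbp2, an interferon-induced GTPase, had levels of 1.73 and 1.62 at 72 h, 2.44 and 2.95 at 78 h, 5.04 and 5.07 at 90 h and 7.02 and 7.02 at 102 h. It climbed at each time point with close duplicates, 14.5-fold between groups (3.85 ± 0.33, adjusted p = 7.37e-10). Its paralogs Gbp3 (2.91 ± 0.42) and Gbp4 (1.82 ± 0.26) were also called, and since the Gbp genes are near copies of each other, reads may have been split among them. The chemokine Cxcl10 rose 9.99-fold (3.32 ± 0.44), from between -0.27 and 0.41 to between 2.92 and 4.20. The transcription factors Irf2 (2.29 ± 0.28) and Irf1 (1.08 ± 0.08) rose, as did Trim30a (3.80 ± 0.63, 0 of 8 fits, 0.000279 without 90 h B) and the class I genes H2-D1 (0.58 ± 0.08) and B2m (0.79 ± 0.14, 2 of 8 fits, 0.0017 without 90 h B).

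The upstream sequences of 3 of these genes are shown because they hold the interferon-stimulated response element, searched as 2 copies of GAAA with any 2 bases between them, on both strands, in the 250 bases before the RefSeq start (GRCm38.p6), with matches in capitals. The windows are chr3:142559926-142560025 for Gbp3 (plus strand, overlapping matches), chr5:92349040-92349139 for Cxcl10 (minus strand) and chr7:104465194-104465293 for Trim30a (minus strand), 100 bases each and free of annotated exons.
Gbp3: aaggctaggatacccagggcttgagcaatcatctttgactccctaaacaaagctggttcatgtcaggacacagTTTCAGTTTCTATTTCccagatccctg
Cxcl10: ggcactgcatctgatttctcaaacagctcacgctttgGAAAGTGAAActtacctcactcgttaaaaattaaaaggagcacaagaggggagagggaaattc
Trim30a: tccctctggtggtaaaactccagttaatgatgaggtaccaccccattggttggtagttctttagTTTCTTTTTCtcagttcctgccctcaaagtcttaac

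The element ends 30 bases before the start in Gbp3, 204 in Cxcl10 and 27 in Trim30a. Over all 10686 tested genes with a promoter in the table, 2.32% held it, beside 3.76% of the 532 genes called higher and 1.49% of the 336 called lower. The motif was chosen after the values were seen, and a match describes letters, not binding.

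Genes of the actin cytoskeleton and of the SRF and YAP programs, also gathered after their values were seen, had 17 of 27 measured members called higher and 0 lower, at a median change of 1.02 and with 13 to 16 called when any 1 library was left out. SRF and YAP are regulators that respond to actin assembly, adhesion and cell shape. Ccn1 (Cyr61), a secreted YAP target, had levels of 5.23 and 5.12 at 72 h, 5.56 and 5.74 at 78 h, 7.52 and 7.56 at 90 h and 8.57 and 8.58 at 102 h. Duplicates lay close together and the groups stood far apart, 6.25-fold (2.64 ± 0.11, adjusted p = 4.98e-16). Ccn2 (CTGF) rose 3.87-fold (1.95 ± 0.12). Ankrd1, a further YAP target, was counted by 0 or 1 read in each early library and by 9 to 58 in each late one, so that no fold is given.

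Tropomyosin Tpm1 was among the most abundant genes that rose, from between 7.93 and 8.26 to between 9.41 and 10.61, which is 3.88-fold (1.95 ± 0.07, adjusted p = 7.25e-17). Tagln (SM22), an actin-binding protein of smooth muscle, rose 4.67-fold (2.22 ± 0.16), Cnn2 (calponin) 3.06-fold (1.62 ± 0.10), and the adhesion protein Vcl (vinculin) 1.65-fold (0.72 ± 0.10). Skeletal actin Acta1 rose 9.02-fold (3.17 ± 0.51, 1 of 8 fits, 0.000277 without 102 h B) and myosin light chain Myl9 by 1.02 ± 0.18 (0 of 8 fits, 0.000694 without 102 h B). Smooth muscle actin Acta2 separated the groups at 2.85 ± 0.56 without passing (adjusted p = 0.000256). Of the feedback kinases and scaffolds of the Hippo pathway, Lats2 (1.62 ± 0.14) and Amotl2 (1.41 ± 0.13) rose.

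The following upstream windows are shown because they hold the CArG box, the element read by SRF, or GGAATG, the core read by the TEAD partners of YAP. They lie at chr10:79988484-79988583 (Cnn2, plus strand), chr14:20929148-20929247 (Vcl, plus strand), chr2:156775258-156775357 (Myl9, plus strand) and chr3:145650036-145650135 (Ccn1, minus strand, with GGAATG on the opposite strand), with the CArG box or TEAD core in capitals.
Cnn2: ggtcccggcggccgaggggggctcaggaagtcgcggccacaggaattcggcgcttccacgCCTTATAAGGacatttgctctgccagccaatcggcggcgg
Vcl: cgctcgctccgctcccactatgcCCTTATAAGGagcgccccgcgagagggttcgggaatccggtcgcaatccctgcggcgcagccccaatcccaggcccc
Myl9: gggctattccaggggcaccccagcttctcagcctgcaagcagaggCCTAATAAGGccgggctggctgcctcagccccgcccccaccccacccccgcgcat
Ccn1: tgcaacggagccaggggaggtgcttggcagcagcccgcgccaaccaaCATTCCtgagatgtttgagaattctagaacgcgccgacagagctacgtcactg

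A CArG box stood in 1.14% of all 10686 promoters, in 2.26% of the 532 of genes called higher and in 0.595% of the 336 of genes called lower. GGAATG stood in 10.5% of all promoters, in 13% of those of genes called higher and in 11.3% of those of genes called lower. Both motifs were chosen after the values were seen.

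Of 14 hypoxia and glycolysis genes 6 were called lower, 0 higher and 8 not called, at a median change of -0.60, and 6 or 7 were called lower when any 1 library was left out. Ldha, which turns pyruvate into lactate, had levels of 11.06 and 11.18 at 72 h, 10.92 and 10.98 at 78 h, 10.85 and 10.62 at 90 h and 10.03 and 9.85 at 102 h. It stepped down mostly after 90 h, with a change of -0.70 ± 0.10 in all (adjusted p = 2.24e-06). Bnip3, a mitophagy receptor induced by hypoxia, overlapped at 90 h (7.52 and 6.85 against 7.33 to 7.72 early) and was low at 102 h (5.53 and 5.59), for a mean change of -1.1 ± 0.13. The oxygen sensor Egln3 fell by 1.03 (SE 0.09), the phosphofructokinase Pfkp by 0.89 (SE 0.06), Pdk1, which blocks entry of pyruvate into the citrate cycle, by 0.59 (SE 0.06) and hexokinase Hk2 by 0.57 (SE 0.08). Of 12 stress response genes 0 were called, and of 20 cell cycle genes Ccne1 (cyclin E1) was called lower (-0.57 ± 0.09, 4 of 8 fits, 0.000414 without 90 h A). Over all genes 3.14% were called lower.

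Miat, a long intergenic noncoding RNA, was the largest fall by the naming rule. Its levels were 4.32 and 4.24 at 72 h, 4.05 and 3.91 at 78 h, 2.44 and 1.99 at 90 h and 1.38 and 0.48 at 102 h. Each time point lay below the one before, and the late group stood 5.9-fold lower (-2.56 ± 0.22, adjusted p = 1.12e-09). Nefh, the heavy neurofilament, fell 4.41-fold (-2.14 ± 0.28), and Cend1, a neuronal cell cycle exit protein, was at -2.44 ± 0.42 (0 of 8 fits, 0.000614 without 90 h A). In a list of neuronal cytoskeleton and RNA-binding genes, chosen after the values were seen, 6 of 15 measured were called lower and 1 higher. Ina (alpha-internexin) fell by 1.53 (SE 0.20) from between 6.19 and 6.41 to between 4.47 and 5.22, the RNA-binding Elavl3 by 1.51 (SE 0.18) and Elavl2 by 0.54 (SE 0.10, 0 of 8 fits, 0.000832 without 78 h A), while Stmn2, a microtubule regulator, rose by 0.75 ± 0.09. Other large falls were the circadian repressor Ciart (4.55-fold), Fam184b (4.78-fold), Slc45a1 (4.08-fold), the cytokine Tnfsf11 (3.91-fold), Gm12688 (3.72-fold) and the transporter Slc5a11 (3.6-fold).

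Of 565 tested genes of the antisense, lincRNA and processed transcript classes, 2 were called higher (0.354%) and 22 lower (3.89%), at a median change of -0.13. The share called lower was near that over all genes, 3.14%, and the share called higher was under 4.85%. H19 and Lncenc1 (0.63 ± 0.10, 3 of 8 fits, 0.000388 without 78 h A) were the 2 that rose. Beside Miat and Gm12688 the falls included 1700001L05Rik (-1.27), Mir17hg, the host of the miR-17 cluster (-1.23 ± 0.10), Ftx, from the X-inactivation centre (-1.17 ± 0.11), the small nucleolar RNA host Gas5 (-0.65 ± 0.11, 1 of 8 fits, 0.000895 without 72 h B) and Tug1 (-0.51 ± 0.07).

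Inside the groups, 0 genes differed between 78 h and 72 h by limma at an adjusted p under 0.0001, 3 at 0.05 and 1948 at an unadjusted p under 0.05. Between 102 h and 90 h 41 genes were called higher (0.287%) and 16 lower (0.112%), and 50 of these 57 were also called, in the same direction, between the groups. Among the rises inside the late group were Mmp9 (2.58 ± 0.22), Igf2 (2.41 ± 0.21), Krt8 (1.5 ± 0.12) and Tpm1 (1.16 ± 0.10), and among the falls Bnip3 (-1.63 ± 0.18) and Egln3 (-0.92 ± 0.13). The late mean of these genes therefore averages 90 h with a higher or lower 102 h. The change in replicate A and that in replicate B differed in 0 genes at an adjusted p under 0.0001 or 0.05 (limma, 8 libraries), and in 73 genes (0.511%) at an unadjusted p under 0.05. In this fit the step between the time points of a group counted as spread. A difference between the replicates could therefore be missed, and the 0 does not show that both courses changed alike.

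The 84 h libraries, used in no contrast, fell between the groups. Their mean lay between the early and late means in 677 of the 693 genes called higher and in 417 of the 449 called lower. The median position of 84 h was 41.3% of the way in replicate A and 38.8% in replicate B for genes called higher, and 46.2% and 41.9% for genes called lower. At 96 h the replicates stood at 89.1% (A) and 72.9% (B) for rising genes and at 80.2% (A) and 49.5% (B) for falling genes. T was 5.70 in A and 7.83 in B at that time, and Sox1 3.62 and 1.96. At 108 h the rising genes had gone further, to 146% (A) and 140% (B), and the falling genes to 137% and 128%. Both then came back in part. At 120 h the rising genes stood at 118% and 115% and the falling genes at 81.3% and 82.8%, with Igf2 at 9.14 and 9.24 and Miat at 2.03 and 1.89.

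**Figure D4:**
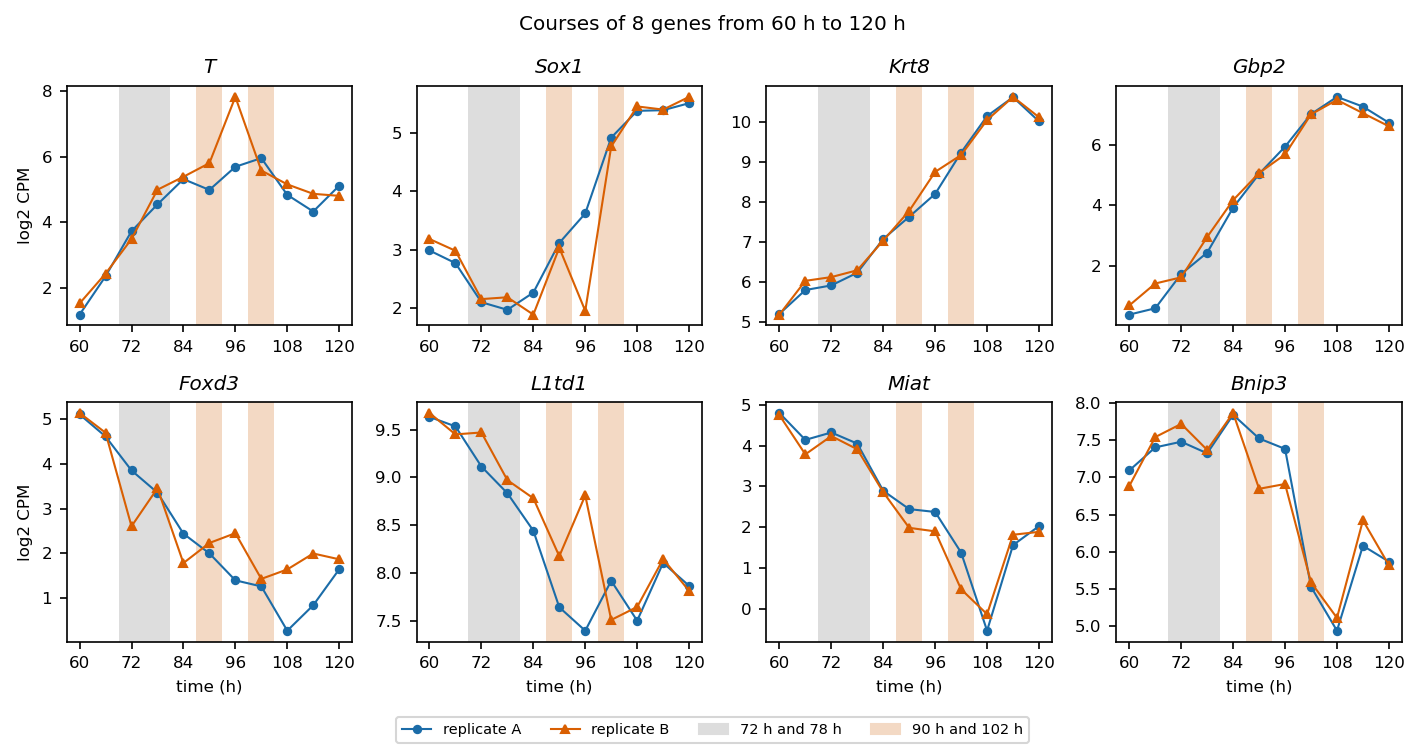
Level (log2 CPM) of 8 genes against time from 60 h to 120 h, with circles for replicate A and triangles for replicate B. Grey bands mark the early and orange bands the late libraries, and the 96 h values of T, Sox1 and L1td1 differ between replicates.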

How the data were processed

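Stranded poly-A RNA sequencing covered 42 libraries. Per the labels and the methods, the authors used Trim Galore for trimming, TopHat2 for alignment (mm10), HTSeq for counts per GENCODE vM2 gene, edgeR for normalization, and voom. The versions are not given in the sources used here. The deposited values are log2 CPM with the voom offset of 0.5 reads, and whole read numbers could be recovered from all of them (largest distance 2.91e-08), which gave the depths. Identifiers matched GENCODE vM21 for 14177 of 14296 genes, and symbols and biotypes are from it. Promoters are RefSeq (GRCm38.p6), first listed start, matched by symbol for 10686 genes.

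The deposited log2 values were fitted with limma 3.58.1 in R 4.3.3 (lmFit, then eBayes with trend=TRUE), using the 21 time points as levels of a factor over 42 libraries, leaving 21 residual degrees of freedom, with Benjamini-Hochberg adjustment over all genes. The 96 h libraries entered the fit and not the contrast. Replicate letters, per the labels, mark 2 courses, and residuals of libraries of the same letter correlated at 0.305 to 0.594 over the 6 pairs of the 4 time points, so a replicate block was run. The other alternatives are in the closing section. A script was tested on simulated data. Python 3.11.15 drew the figures.

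Groups, lists and tests were chosen with earlier results of these data known, and 3 of 30 lists after values were seen. Named were the 15 largest rises and 10 largest falls among called genes without overlap of the groups whose higher group averaged 1 log2 CPM or more, called members and up to 4 uncalled members of each list, a set of anchor genes, and the 5 noncoding genes with the largest change. Other genes named were chosen after their values were seen. Some genes that these rules name are not reported here.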

Additional observations from a re-analysis of the deposited data

Results flagged for a closer look

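In the groups of 4 libraries of the genes named, 16 of 324 groups (4.94%) held a library far from the other 3, by Dixon's ratio of the gap to the whole range at its 95% critical value, and chance flags about 5%. Replicate B at 72 h stood low in Gata4 (ratio 0.862), Furin (0.830), Rxra (0.833), Itgb5 (0.831), Vcl (0.864) and 2900089D17Rik (0.832), and high in Tug1 (0.924). Furin was at 4.18 there against 5.27 to 5.5 in the other early libraries. Replicate A at 72 h was high in Lefty1 (0.840), and the 78 h libraries were low in Ciart (A, 0.842) and high in Tead2 (B, 0.835) and Cdh1 (B, 0.858). In the late group Eomes was low at 90 h A (0.910), at 4.96 against 5.65 to 5.72, Dnmt3l (0.858) and Foxa2 (0.842) were high at 90 h B, Peg3 was high at 102 h A (0.881), and Gm12688 was low at 102 h A (0.981). The cause was not tested.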

How the results depend on the processing

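The fit with a replicate block called 829 genes higher and 610 lower, all 1142 calls included, 9 uncalled named genes gained, and no named call was lost. Weights from voom (846 and 519), summed reads as library size (605 and 530), log2(CPM + 1) (879 and 551), a filter at a mean of 0 log2 CPM (678 and 456) and 96 h added to the late group (755 and 486) stayed within 1.5 times, and no direction of a called named gene reversed in any alternative. Counts moved with the 8 libraries alone (0 and 0; with the block 0 and 0 and 5493 genes at an unadjusted p under 0.05), at an adjusted p under 0.05 (2612 and 2571), and with 96 h out of the fit (880 and 718, chosen after seeing the data). Without the 72 h libraries 223 and 133 genes were called, and without the 102 h libraries 135 and 78. Leaving out 1 library, or 1 course in the fit on the 8 libraries, gave 0 to 656 higher and 0 to 363 lower, and the 0 came without replicate A or B, with 2616 and 3926 genes at an unadjusted p under 0.05. Between 102 h and 90 h 714 genes passed at 0.05 and 106 with 96 h out of the fit, against 57, and between 78 h and 72 h 3 passed at 0.05. The causes were not tested, beyond fewer samples in the smaller fits. Genes under 3 reads depend on the offset.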
